A study of Mus musculus with 10 samples.

Results

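The genes described here encode the proteins of the mitochondrial ribosome, and they were measured in testes of young adult mice whose mothers had or had not been underfed in pregnancy. They were chosen by name alone: every gene on the array whose symbol begins with Mrpl (proteins named for the large subunit) or Mrps (named for the small subunit), followed by digits and at most 1 letter. This gave 78 of the 23462 genes named on the array, on 104 probes. For 77 of them at least 1 probe was bright enough to test, and the brightest tested probe stands for the gene.

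Each of 10 arrays held the RNA of a single testis from a male C57BL/6N mouse killed at 42 days of age, 5 per group. The 5 C animals were sons of dams that ate freely, and their own mothers raised them. The 5 R animals were sons of dams held from 6.5 days after mating to 50% of the C dams' mean intake, and unrelated C dams fostered them. The groups thus differ in fostering as well as in the dams' diet, both ate freely after weaning, and the labels name no litters, so that litter mates may be among the 10 animals that the tests take as independent. Values are log2 signals: the log2 of the processed spot intensity minus the 75th percentile of the same array, so that 0 is the brightness of that percentile. A probe's signal depends on its sequence, and levels are compared between arrays, not between genes. A gene is called lower or higher in R where limma's adjusted p (Benjamini-Hochberg, over all probes tested) is under 0.05.

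Mitochondria keep a ribosome of their own, related to that of bacteria, which translates the few proteins encoded in mitochondrial DNA, all of them parts of the respiratory chain and the ATP synthase. Its RNAs come from mitochondrial DNA, while all its proteins come from nuclear genes, are made in the cytosol and are imported. Some have a counterpart in the bacterial ribosome, and others were added during the evolution of mitochondria. In the testis, Sertoli cells, Leydig cells and germ cells differ in how far they rely on respiration, and Leydig cells carry out the first step of steroid synthesis inside mitochondria.

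In the R testes, 33 of the 77 tested genes were lower and none was higher, with 44 not called. Over all 16738 genes tested, 35.6% were called in either direction, 20.6% lower and 14.9% higher, against 42.9% of the mitochondrial ribosomal protein genes called lower. The changes were small: those called lower were 1.14-fold to 1.62-fold lower, with a median of 1.28-fold. Only Mrpl3 and Mrps14 passed the study's own criterion of an adjusted p under 0.05 with a fold below 0.66, which 5.68% of all genes passed in the lower direction. The median log2 change of the 77 genes was −0.20, and it was −0.03 over all genes. In 68 of the 77 the R mean lay below the C mean, against 53.0% of all genes.

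**Figure D1:**
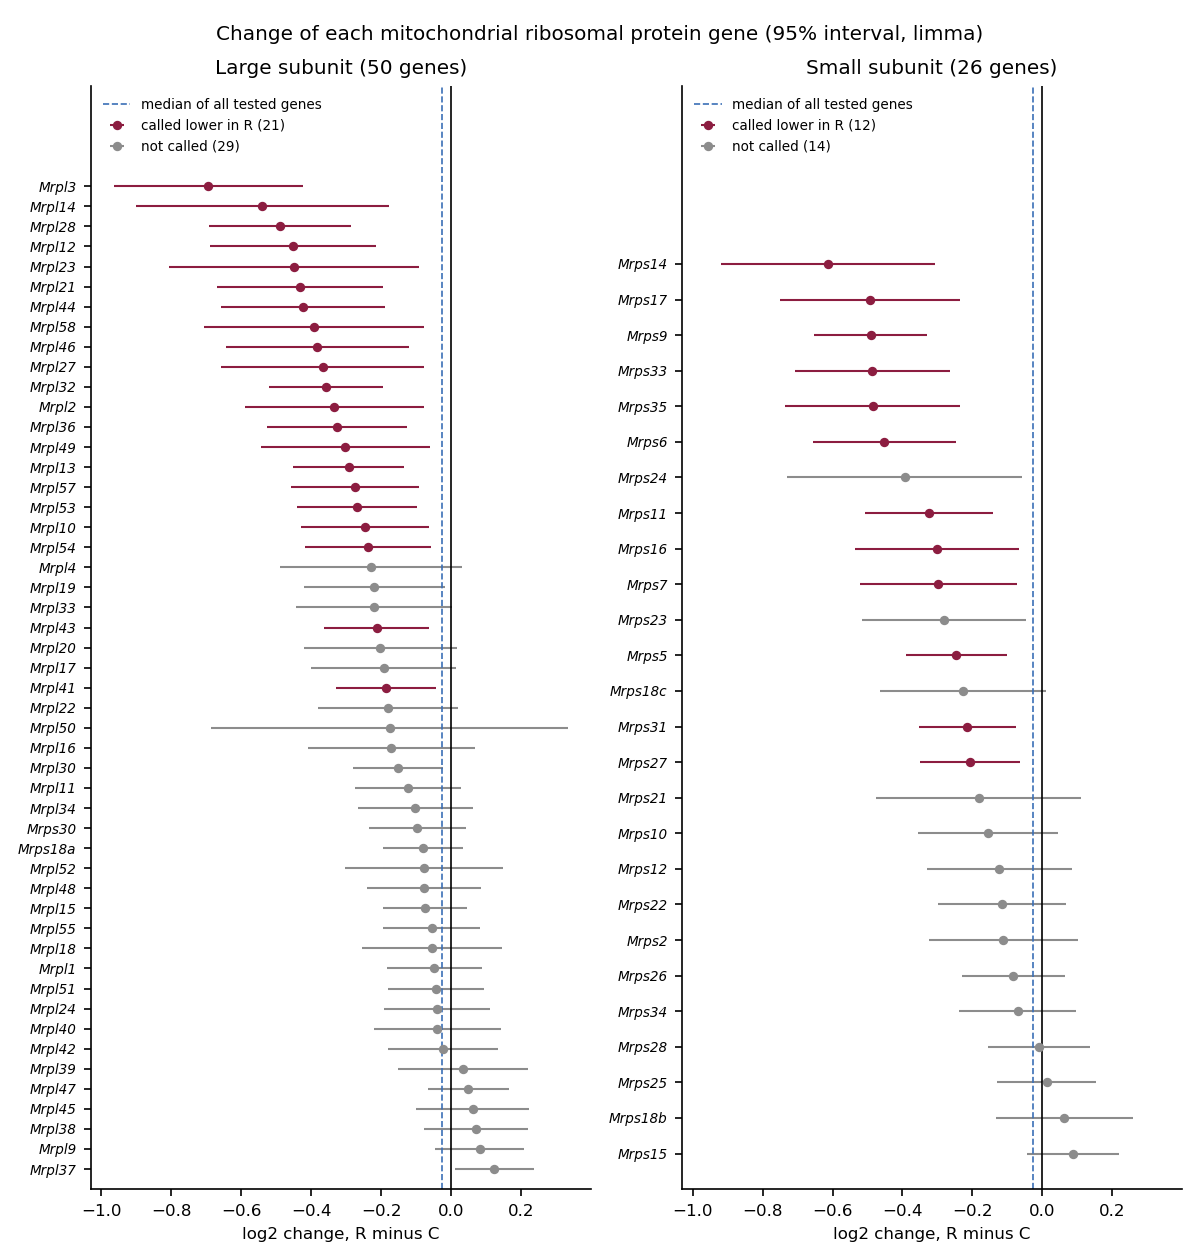
Log2 change (R minus C, limma) of each tested gene with its 95% interval, for 50 genes of the large subunit and 26 of the small subunit; Mrps36, which belongs to neither, is not drawn. Red marks the genes called lower in R (21 and 12), grey those not called, and the dashed line the median of all tested genes (−0.03); most points lie to its left, with Mrpl3 (−0.69) and Mrps14 (−0.61) farthest.

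The count depended on single arrays more than the direction did. As each array was left out in turn, 16 to 34 genes were called lower, with 20 without C replicate 5, 16 without R replicate 1, 19 without R replicate 3 and 16 without R replicate 4, while 14.7% to 22.1% of all genes were called lower. Of the 33 genes, 16 kept their call in each of the 10 repeats and 17 lost it in at least 1. The arrays lay on 2 slides, with 2 C and 4 R arrays on slide 1 and 3 C arrays and 1 R array on slide 2. Within slide 1 the median change was −0.30, against −0.04 over all genes, and 30 genes (39.0%) were called lower, against 22.6% of all genes. Within slide 2, which holds 1 R array, the median change was −0.16, against −0.02 over all genes. With the slide as a block in the fit, 44 genes (57.1%) were called lower, against 28.6% of all genes. Over the 77 genes, 71 had a negative change within slide 1 and 67 within slide 2. The 33 genes were picked as lower on these same arrays, so that their sign within each slide is not a separate test.

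The 6 genes with the smallest p kept their call whichever array was left out. They were picked by p on these same arrays, so that keeping the call is not a separate test. Mrps9, the counterpart of a bacterial small-subunit protein near the site of the peptidyl-tRNA, had log2 signals of 0.59, 0.78, 0.47, 0.47 and 0.60 in C replicates 1 to 5. Its log2 signals in R replicates 1 to 5 were 0.10, 0.04, 0.06, 0.09 and 0.17. Every R array lay below every C array. The group means were 0.58 ± 0.13 in C and 0.09 ± 0.05 in R (SD, n = 5), a 1.41-fold fall with a 95% interval of 1.26 to 1.57 (limma, adjusted p = 0.00198). The other probe of Mrps9 was lower too, at a log2 change of −0.61 (adjusted p = 0.00324 by limma).

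Mrpl3, whose bacterial counterpart reaches toward the peptidyl transferase centre, where the peptide bond is made, showed the largest fold of the 33. Its log2 signals were 2.21, 2.66, 2.04, 1.94 and 2.15 in C replicates 1 to 5 and 1.56, 1.57, 1.47, 1.46 and 1.47 in R replicates 1 to 5. The R arrays lay close together, all below the lowest C array, while C replicate 2 stood above the other C arrays. The mean was 1.62-fold lower in R (1.34 to 1.95, adjusted p = 0.00351 by limma), and the log2 change was −0.58 without C replicate 2.

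Mrpl28, a large-subunit protein with a bacterial counterpart, had log2 signals of 0.24, 0.70, 0.36, 0.33 and 0.49 in C and of −0.08, −0.07, −0.01, −0.18 and 0.02 in R. The groups did not overlap, and the fold was 1.40 lower (1.22 to 1.61, adjusted p = 0.00432 by limma). Mrps33, a small-subunit protein that bacteria lack, gave log2 signals of 2.44, 2.81, 2.29, 2.26 and 2.48 in C and of 1.95, 2.01, 1.97, 1.98 and 1.93 in R. It was 1.40-fold lower (1.20 to 1.63, adjusted p = 0.00612 by limma), and both of its other probes were called lower, with log2 changes of −0.46 and −0.58.

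Mrps6, the counterpart of a bacterial protein on the platform of the small subunit, had log2 signals of 2.69, 2.94, 2.56, 2.48 and 2.50 in C and of 2.17, 2.20, 2.21, 2.08 and 2.26 in R. Again no R array reached the lowest C array, and the mean was 1.37-fold lower (1.19 to 1.58). Mrpl32, a large-subunit protein that must be trimmed by the m-AAA protease of the inner membrane before it joins the ribosome, had log2 signals of 1.89, 2.22, 2.08, 2.14 and 2.14 in C. In R its log2 signals were 1.63, 1.73, 1.81, 1.76 and 1.75. C replicate 1 was the lowest C array and still lay above the highest R array, and the mean was 1.28-fold lower (1.14 to 1.44). Mrps6 and Mrpl32 had adjusted p-values of 0.00615 and 0.00625 by limma. Mrps14, the counterpart of a bacterial protein in the head of the small subunit and the other gene past the fold criterion, lay between 1.49 and 2.23 in C and between 0.96 and 1.29 in R. Its groups did not overlap, and it was 1.53-fold lower (1.24 to 1.89, adjusted p = 0.00873 by limma), with a log2 change of −0.49 without C replicate 2.

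**Figure D2:**
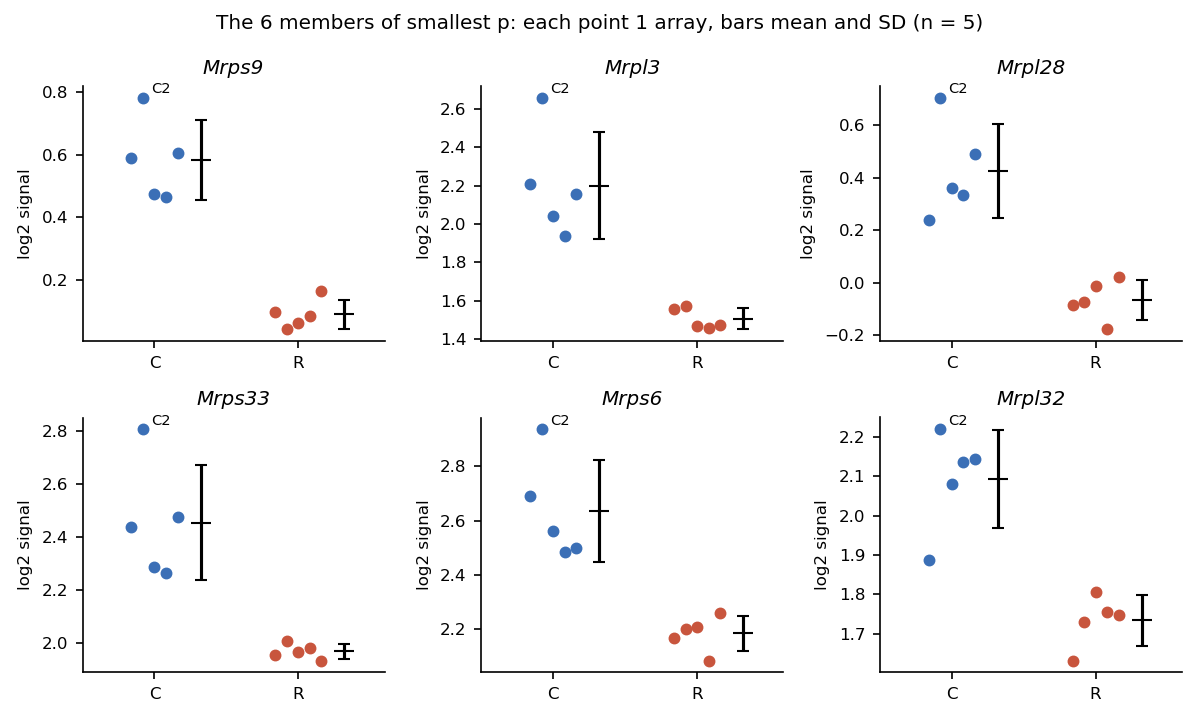
Log2 signal of the 6 genes of smallest p in each array (blue, C; orange, R), with the mean and SD of each group beside the points (n = 5). In each panel every R array lies below every C array, and C2 is the highest point.

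Every R array lay below every C array in 26 of the 77 genes, a pattern found in 16.5% of all genes, and 22 of those 26 were among the 33 called. The reverse held for 1 gene, against 12.6% of all genes. That gene, named here after its values were seen, is Mrpl37, a large-subunit protein without a bacterial counterpart. Its log2 signals lay between 2.86 and 2.92 in C and between 2.97 and 3.06 in R, a change of 0.12 that did not pass (adjusted p = 0.0775 by limma). It was called higher with a trended variance (0.0384), with array weights (0.0149) and with the authors' scaling factors (0.0304), and its change was −0.08 with the array median as reference.

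C replicate 2, on slide 1, stood apart from the other arrays in these genes. Their median deviation from each gene's mean over the 10 arrays was 0.35 in that array, between −0.00 and 0.07 in the other 4 C arrays and between −0.12 and −0.04 in the R arrays. It was the highest C array in 67 of the 77 genes, and in 40.3% of all genes. The C group was the more variable one, with a median SD of 0.15 against 0.07 in R, and of 0.08 in C without C replicate 2. All genes showed median SDs of 0.20 in C and 0.12 in R, and of 0.14 in C without C replicate 2. Without C replicate 2, the median change of the 77 genes was −0.13, against −0.02 over all genes. In that setting 30 of the 77 (39.0%) were called lower, against 19.3% of all genes, and none of the 77 passed the fold criterion. Among the R arrays, R replicate 2 was the highest in 44 of the 77 genes.

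**Figure D3:**
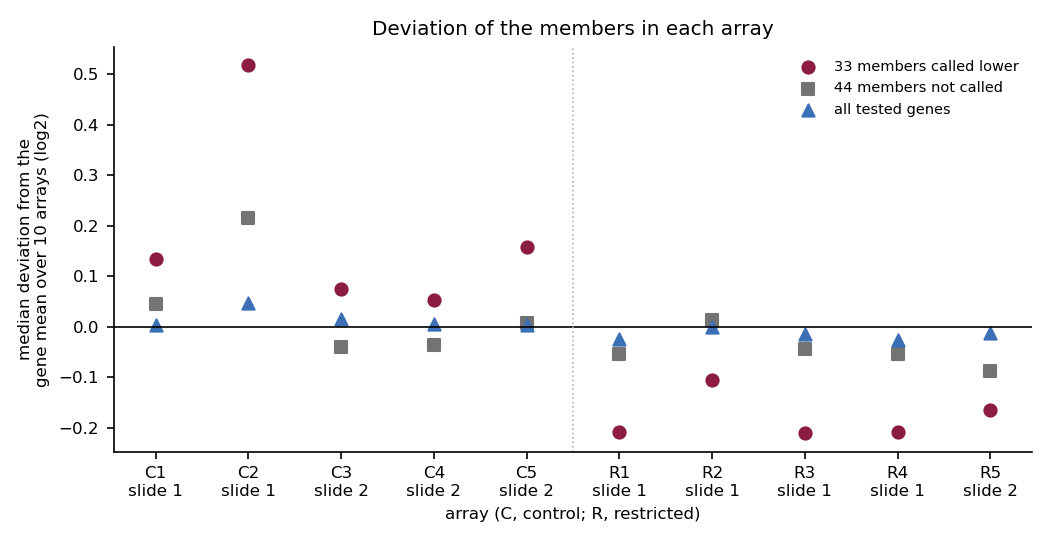
Median deviation from each gene's mean over the 10 arrays (log2), per array, for the 33 genes called lower in R (circles), the 44 not called (squares) and all tested genes (triangles), with the slide of each array. C2 lies highest in each set (0.52, 0.22 and 0.05), and the circles of the R arrays lie between −0.21 and −0.10.

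By subunit, 21 of 50 tested large-subunit genes (42.0%) and 12 of 26 small-subunit genes (46.2%) were lower, with median log2 changes of −0.19 and −0.22. The genes were placed by where the protein sits rather than by name, so that Mrps30 and Mrps18a count with the large subunit. Mrps36, now known as a part of the 2-oxoglutarate dehydrogenase complex, was counted with neither, and its change was −0.05 (95% interval −0.21 to 0.11). Of the 45 genes with a bacterial counterpart 20 were lower (44.4%), with a median of −0.23. Of the 31 classed as specific to the mitochondrial ribosome, which include Mrps18a, Mrps18b and Mrpl58, 13 were lower (41.9%), with a median of −0.12. Over all genes tested 20.6% were lower, with a median of −0.03. No difference between these classes was tested.

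In the stalk of the large subunit, where the translation factors bind, 4 of 5 genes were called lower, against 20.6% of all genes tested. Among the 77 genes the share was 42.9%. The 4 were Mrpl10, Mrpl12, Mrpl53 and Mrpl54, and the median over the 5 genes was −0.25. No difference between the stalk and the other genes was tested. Mrpl12, the stalk protein that contacts the elongation factors, had log2 signals of 3.57, 4.04, 3.82, 3.92 and 4.20 in C and of 3.40, 3.54, 3.45, 3.40 and 3.49 in R. No R array reached the lowest C array, and the mean was 1.37-fold lower (adjusted p = 0.0107 by limma). The calls of Mrpl10, Mrpl53 and Mrpl54 were each lost when at least 1 array was left out, with adjusted p-values up to 0.0859, 0.0531 and 0.0934 by limma. The other probe of Mrpl10 was at −0.08 and not called. Mrpl11, at the base of the stalk, did not pass, at −0.12 (−0.28 to 0.03).

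Of the 6 genes at the exit of the peptide tunnel, through which the new protein leaves, only Mrpl23 was called, at −0.45 (adjusted p = 0.0484 by limma). That call depended on each of 6 arrays, since leaving out any of them removed it. The other 5 were Mrpl17 at −0.19, Mrpl22 at −0.18, Mrpl24 at −0.04, Mrpl45, which ties the ribosome to the inner membrane, at 0.06 and Mrpl47 at 0.05. Over the 6 genes the median was −0.11, and 16.7% were called lower, against 20.6% of all genes.

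In the central protuberance, the crown of the large subunit, 3 of 8 genes were lower (37.5%, against 20.6% of all genes). They were Mrpl27 at −0.37, Mrpl46 at −0.38 and Mrpl58 at −0.39. Mrpl58 is related to release factors and can free a stalled ribosome. Each of these 3 calls was lost without at least 4 of the arrays in turn, at adjusted p-values up to 0.103, 0.0665 and 0.106 by limma. The 2 other probes of Mrpl27 were called lower, at −0.50 and −0.53 (adjusted p = 0.00529 and 0.00360 by limma). The other probe of Mrpl58 was at −0.39 and not called. Mrpl18, Mrpl38, Mrpl40, Mrpl48 and Mrpl55 were not called, with log2 changes between −0.08 and 0.07.

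At the decoding site, Mrps12 was not called, at −0.12 (95% interval −0.33 to 0.08). The Mrps18 proteins descend from 1 bacterial protein and sit at different places in the ribosome. Their changes were −0.08 for Mrps18a, 0.06 for Mrps18b and −0.23 for Mrps18c, and none was called. For Mrps18a every R array lay narrowly below every C array (2.31 to 2.39 in R, 2.39 to 2.47 in C). Mrps30 was at −0.10 (−0.23 to 0.04). Mrpl51 and Mrpl50, with the highest and the lowest signal of the tested genes (5.85 and −2.60), were at −0.04 and −0.18, and the interval of Mrpl50 ran from −0.69 to 0.33.

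A gene that was not called is not shown to be equal in both groups. Among the 44, the intervals reached from −0.73 (Mrps24) to 0.33 (Mrpl50), and 5 had an unadjusted p under 0.05, of which 4 were lower in R. Mrpl35 was not tested, since its probe was well above background on 3 C arrays and on no R array. Its log2 signals lay between −5.59 and −4.78 in C and between −6.87 and −6.20 in R, around or under the lowest detected signals of these arrays, and no fold is given.

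Most genes with more than 1 tested probe gave the same sign on each. This was so for 16 of 22 such genes, and for 9 of the 10 among them that were called lower, of which 6 had a further probe called lower. Mrps5 was the exception, with a change of −0.25 on its brightest probe and 0.15 on the other, and averaging both removed its call (adjusted p = 0.597 by limma). Mrpl21 also lost its call over the mean (adjusted p = 0.0872 by limma), since its other probe was at −0.06. With the mean over probes, 29 of the 33 genes kept their call. Mrpl22, Mrps21 and Mrps23 were not called on the brightest probe, yet another probe of each was called lower, at −0.32, −0.30 and −0.45. Mrps2, an early-assembling small-subunit protein, was at −0.11 on its brightest probe, while its other probe was called higher (0.21, adjusted p = 0.0459 by limma).

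The genes were mostly well detected: 46 of 77 had a signal among the brightest 25% of all tested genes and 27 among the next 25%. Of those 46, 14 were lower, with a median of −0.14, where 15.2% of all genes of that brightness were lower and the median was 0.01. Of the 27, 17 were lower, with a median of −0.33, where 24.8% of all genes were lower and the median was −0.05. The remaining 4 genes gave 2 calls. The reference of the scale matters for the level of these values: with each array's median in place of its 75th percentile, the median change was −0.41, against −0.23 for all genes, and 49 of the 77 genes were called lower. In that setting 37.3% of all genes were called lower and 5.43% higher.

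**Figure D4:**
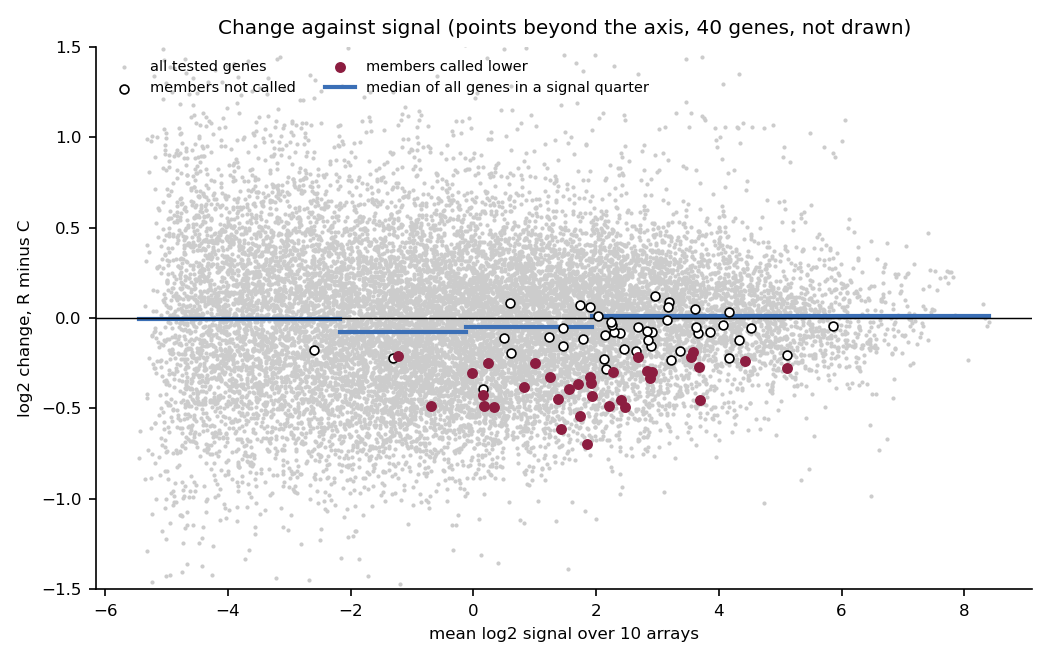
Log2 change (R minus C) against the mean log2 signal over 10 arrays for all tested genes (grey points), the genes called lower (red) and the genes not called (open circles); blue bars give the median of all genes within each 25% of genes ordered by signal. The red points lie below the blue bars, which run between −0.08 and 0.01.

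The start regions of these genes were examined for short sequences known from nuclear genes of mitochondrial proteins, because 33 of the genes were lower together. Promoters from 250 bases before to 50 bases after the start were found in the RefSeq table (GRCm38.p6) for 69 of the 78 genes. Cores were searched on both strands, and those of 1 factor may overlap each other. The core CCGGAAG, bound by ETS factors such as GABP, was in 26 of 69 (37.7%), against 9.93% of all 27025 promoters. It was in 10 of 30 genes called lower and in 16 of 38 not called. The core GCATGCG of the nuclear respiratory factor NRF1 was in 8 (11.6%, against 4.01%), the core GATGGCG of YY1 in 8 (11.6%, against 4.04%), and CACGTG, the E-box, in 5 (7.25%, against 8.09%). The NRF1 core was in 2 of the 30 genes called lower and in 6 of the 38 not called. For YY1 these counts were 3 and 4, and for the E-box 2 and 3. A match to these letters is not a measured binding site.

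The promoters of Mrpl3, with the largest fold, and of Mrpl32 show the 2 kinds of core, printed from 5′ to 3′ up to the last base before the start, with each core in capitals. In Mrpl3 (GRCm38.p6, chr9:105053018-105053267, plus strand) the ETS core begins 19 bases before the start. In Mrpl32 (GRCm38.p6, chr13:14613038-14613241, minus strand) NRF1 cores begin 86, 85, 65, 23 and 22 bases before the start, and those 1 base apart overlap on opposite strands.
Mrpl3: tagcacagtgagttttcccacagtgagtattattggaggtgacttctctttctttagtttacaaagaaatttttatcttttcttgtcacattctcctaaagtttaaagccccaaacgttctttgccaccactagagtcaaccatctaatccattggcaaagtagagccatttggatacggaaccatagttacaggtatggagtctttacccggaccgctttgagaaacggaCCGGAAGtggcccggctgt
Mrpl32: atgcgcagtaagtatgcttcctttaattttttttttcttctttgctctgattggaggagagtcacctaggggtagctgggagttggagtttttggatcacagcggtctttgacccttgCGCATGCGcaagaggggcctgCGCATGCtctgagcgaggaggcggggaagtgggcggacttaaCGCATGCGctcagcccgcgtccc

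The Mrpl32 sequence is the whole stretch of 204 bases between Mrpl32 and Psma2, a subunit of the proteasome that is read the other way. Such a head-to-head neighbour within 1000 bases was found for 26 of 69 genes (37.7%), against 12.3% of all 27025 genes of the table and 17.6% of those tested here. Psma2 was lower by 0.60 (log2 change −0.60, adjusted p = 0.00917 by limma), as Mrpl32 was (−0.36). Among the neighbours of the 26, 5 were lower (19.2%, near the 20.6% of all genes), 2 higher and 19 not called, with a median change of −0.03. In 14 of these 26 entries the mitochondrial ribosomal protein gene was lower, and its neighbour was then lower in 4, higher in 1 and not called in 9. The pair of Mrpl46 and Mrps11 enters once from each side.

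Besides that of Mrpl32, the pairs with both genes lower were that of Mrpl46 and Mrps11, a protein of each subunit, and that of Mrpl43 with Twnk, the helicase that unwinds mitochondrial DNA for copying. Mrps11 was at −0.32 and Mrpl46 at −0.38, Mrpl43 at −0.21 and Twnk at −0.36. In Mrpl21 and its neighbour Ighmbp2, a helicase, the changes ran opposite ways: Mrpl21 was lower (−0.43, adjusted p = 0.0124 by limma) and Ighmbp2 higher (0.28, adjusted p = 0.0178 by limma). Tcp1 beside Mrpl18 was lower (−0.19) and Ppp1r10 beside Mrps18b higher (0.29), with neither Mrpl18 nor Mrps18b called, and both neighbours lost their call when single arrays were left out. The stretches between the starts are shown whole for the pairs with both genes lower and for Mrpl21 and Ighmbp2, the 1 pair called in opposite directions. That of Mrpl43 (GRCm38.p6, chr19:45006443-45006557, minus strand) holds ETS cores, in capitals, that begin 56 and 12 bases before the start of Mrpl43. Those of Mrps11 (chr7:78783090-78783130, plus strand) and Mrpl21 (chr19:3283011-3283041, plus strand) are 41 and 31 bases long and hold none of the 4 cores, while the full window around the start holds a YY1 core for Mrps11 and an ETS core for Mrpl21.
Mrpl43 and Twnk: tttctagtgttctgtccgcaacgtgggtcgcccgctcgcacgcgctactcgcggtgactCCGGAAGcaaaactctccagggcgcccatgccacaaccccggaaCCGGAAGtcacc
Mrps11 and Mrpl46: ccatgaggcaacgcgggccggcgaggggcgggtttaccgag
Mrpl21 and Ighmbp2: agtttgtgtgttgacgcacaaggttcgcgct

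Other genes of mitochondrial gene expression were read from lists of the same pathway. The shares to set beside each list are those of all genes tested, 20.6% lower and 14.9% higher, with a median of −0.03. Of 5 ribosomal proteins with other kinds of name 1 was lower, Chchd1 of the small subunit, from 4.16 ± 0.26 to 3.66 ± 0.06 (SD, n = 5; adjusted p = 0.00993 by limma). Dap3, a GTP-binding small-subunit protein, had a change of 0.08 and was not called. Of 26 genes that assemble the ribosome or modify its RNA 12 were lower (46.2%) and 1 higher, with a median of −0.29. Among them Mettl15, which methylates the small-subunit RNA, was lower by 0.59 (log2 change −0.59, 1.51-fold). Ddx28, an RNA helicase of large-subunit assembly, was at −0.41, and Malsu1, which keeps the large subunit from joining too early, was at −0.58. The one gene higher, named after its values were seen, was Mterf4 (0.25, and not called with the array median as reference or without any 1 of 3 arrays), which brings the methyltransferase Nsun4 to the large subunit.

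Of 13 translation factors 6 were lower (46.2%) and 1 higher, with a median of −0.14. Tsfm, the exchange factor of the elongation factor Tufm, was 1.40-fold lower, Mtrf1l, a release factor, 1.38-fold lower and Guf1 1.27-fold lower. The initiation factor gene Mtif2, also named after its values were seen, was higher, from 4.45 ± 0.49 to 5.10 ± 0.14 (SD, n = 5; adjusted p = 0.0314 by limma). Of 20 genes that charge mitochondrial transfer RNAs 8 were lower and 0 higher, with a median of −0.18. Yars2, for tyrosine, was at −0.48, Qrsl1, for glutamine, at −0.36 and Vars2, for valine, at −0.25. The calls of Guf1 and Mtif2 were each lost without any 1 of 3 arrays, and that of Vars2 without R replicate 1. Over the mean of their probes the changes of Guf1 and Mtif2 were −0.62 and 0.34.

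Of 10 genes that copy or transcribe mitochondrial DNA or stabilise its transcripts 6 were lower (60.0%) and 0 higher, with a median of −0.24. Tefm, the elongation factor of mitochondrial transcription, was 1.57-fold lower (limma, adjusted p = 0.00159). Ssbp1, which coats single-stranded mitochondrial DNA, was 1.41-fold lower and Twnk 1.29-fold lower. Of 12 genes often read as a measure of mitochondrial mass 6 were lower (50.0%) and 1 higher, with a median of −0.17. Tomm20 of the outer-membrane import pore was 1.69-fold lower, the chaperone Hspd1 1.48-fold and the prohibitin Phb2 1.16-fold, while Timm44 (0.18, but −0.03 with the array median as reference), named after its values were seen, was higher. The call of Timm44 was lost without any 1 of 5 arrays and, as was that of Ssbp1, over the mean of its probes (0.01 for Timm44, −0.16 for Ssbp1). Mitochondrial content itself was not measured.

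Of 9 genes for regulators of mitochondrial gene sets 3 were lower (33.3%) and 1 was higher (11.1%), against 20.6% and 14.9% of all genes. Whether this list differs from all genes was not tested. The Myc family gene Mycn was lower, from −1.26 ± 0.40 to −2.35 ± 0.17 (SD, n = 5), a 2.13-fold difference (adjusted p = 0.00282 by limma). Gabpa, the DNA-binding subunit of GABP, and Yy1 were at −0.24 and −0.28 and were called lower, though each call was lost without any 1 of 7 arrays, and that of Yy1 over the mean of its probes (−0.08). Ppargc1a, a coactivator known for raising mitochondrial biogenesis, was higher, from −2.56 ± 0.33 to −1.84 ± 0.09 (SD, n = 5; adjusted p = 0.00569 by limma). Nrf1 was at 0.12 and not called.

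**Figure D5:**
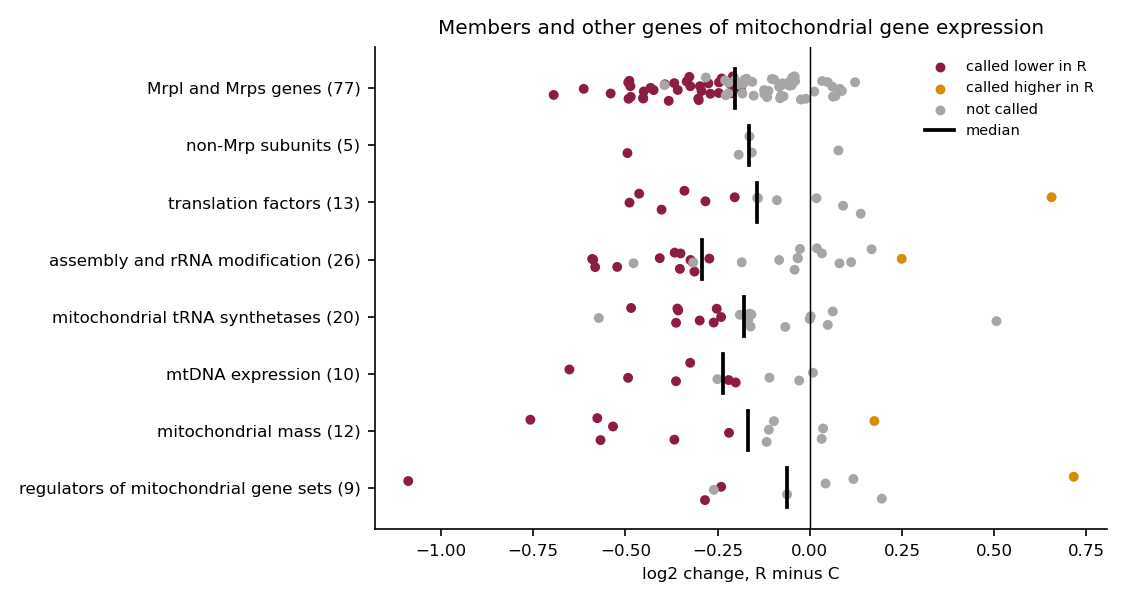
Log2 change (R minus C) of each tested gene of the mitochondrial ribosome and of 7 lists of genes for mitochondrial gene expression, mass and regulation, with the number tested in brackets. Red points were called lower in R, amber points higher and grey points not called, and black lines mark the medians, which lie between −0.29 and −0.06.

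The cytosolic ribosome and the respiratory chain with the ATP synthase, whose mitochondrial-encoded subunits this ribosome makes, were read in the same way. Of 83 cytosolic ribosomal protein genes 25 were lower (30.1%) and 0 higher, with a median of −0.18. Of 82 nuclear genes for subunits of the respiratory chain or ATP synthase 27 were lower (32.9%) and 0 higher, with a median of −0.20. Over all genes tested 20.6% were lower, with a median of −0.03. No difference between these sets and the mitochondrial ribosomal protein genes was tested.

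The arrays hold RNA of the whole testis, where fewer cells of a type and less RNA per cell cannot be told apart. Markers of several cell types differed between the groups too, where 20.6% of all genes tested were lower and 14.9% higher. Of 17 tested Sertoli cell markers 15 were lower and 1 higher (median −0.57), and the summed signal of the list, in units of the array's 75th percentile, was 284 to 420 in C and 237 to 292 in R. Of 10 Leydig cell markers 5 were lower (median −0.42), with sums of 26.1 to 47.5 in C and 21.1 to 27.5 in R. Of 11 spermatogonial markers 6 were lower and 1 higher (median −0.34), with sums of 26.2 to 44.2 in C and 20.7 to 23.8 in R. Of 12 macrophage markers 6 were lower and 1 higher (median −0.55). Their summed signal was 75.3 to 93.2 in C and 94.6 to 112 in R. Most of that sum came from Aif1 and Itgam, at mean log2 signals of 6.20 and 4.10, where each other macrophage marker lay at 0.29 or lower. Aif1 changed by 0.14 and was not called, and Itgam, at 1.06, was the 1 called higher. Of 7 endothelial markers 4 were higher (median 0.45), with sums of 1.74 to 2.51 in C and 2.82 to 3.26 in R. Of 4 blood markers 2 were lower (median −0.69), with sums of 8.86 to 17.5 in C and 5.13 to 12.9 in R.

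Markers of spermatids, which define a testis of this age, were well above background on all 10 arrays. In the germ cells, 5 of 13 spermatocyte markers were lower and 1 higher (median −0.12, sums of 300.3 to 349 in C and 296 to 314 in R). None of 10 round spermatid markers was called by limma (median 0.03, sums of 163 to 198 in C and 171 to 202 in R), and 1 of 11 elongating spermatid markers was lower (median 0.08, sums of 1537 to 1805 in C and 1605 to 1827 in R). Of 6 peritubular myoid markers 1 was lower and 1 higher, with sums of 9.46 to 15.8 in C and 10.4 to 14.4 in R. None of 7 adipocyte markers was called by limma (median 0.67, sums of 1.99 to 8.39 in C and 3.11 to 12.7 in R). Among the listed markers, Amh, Insl3, Tie1, Hbb-bs and Nanos2 were not tested. The part of these differences in the change of the mitochondrial ribosomal protein genes was not tested.

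The authors' deposited table holds 7 probes of these genes among its 2266, each with a p-value of 0.0272 to 0.0469 and a q-value of 0.515. In the authors' deposited table the log2 ratios were −0.39 for the other probe of Mrps9, −0.29 for Mrps6, −0.22 for Mrps23, −0.22 for Mrps7 and −0.21 for Mrps11. Those of Mrpl9 and of the other probe of Mrps5 were 0.11 and 0.19 in the authors' deposited table. Its ratios were formed with R replicate 1 on the control side and C replicate 5 on the test side, against the labels. With the arrays grouped that way, limma called 0 of the 77 genes and 0 of all 16738, and 1 of the 77 had an unadjusted p under 0.05. Without these 2 arrays 12 of the 77 (15.6%) were called lower, against 10.2% of all genes.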

How the data were processed

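Single testes of 10 mice (5 C, 5 R) were hybridised to 1-colour Agilent arrays (Cy3), 1 array each. The labels name 2 sizes of RNA column kit without saying which testis had which. The authors deposited the intensity of every spot, which the submitters' processing notes trace to Agilent Feature Extraction 12.0.3.1. The file headers record background subtraction and detrending within each array, no normalisation between arrays, and mm9 as the build of the probe annotation. For 2266 probes the authors also deposited scaled intensity, a log2 ratio, a p-value and a q-value, and 10 columns of per-sample values in that table were not used here.

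Control and outlier spots were left out and the spots of a probe averaged. Log2 processed intensity was set relative to each array's own 75th percentile (804 to 1019) and tested for 33851 of 56605 probes, those well above background on at least 5 of 10 arrays, with 2 dropped for a missing value. On the arrays 54.6% to 65.9% of probes were well above background, and 0 spots were saturated. The fit used lmFit and eBayes of limma 3.58.1 (R 4.3.3), 2-sided, R minus C, with Benjamini-Hochberg adjustment over all tested probes. Precision is limited by the number of arrays. The main fit was tested on simulated data with independent noise in each probe. The scaling, the filter, the choice of probe and the alternatives were not tested in that way.

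Accessions of probes were looked up in a RefSeq gene table of GRCm38 (33767 probes), and the brightest tested probe represents a gene. The genes and lists were chosen with earlier results of these data known, so that no p-value is given over a list. One listed marker is not reported here. Placement by subunit, site and bacterial ancestry follows textbook knowledge. Genes named with values were those of smallest p, up to 6 in each direction and up to 3 called in each further list, those of the sites described, the Mrps18 genes, Mrps30, Mrps36 and Mrps12, those with the highest and lowest signal and those whose probes disagree. Others are said to be named after their values were seen, belong to a pair of neighbours, or mark an end of a range. Replicate numbers do not pair animals, and no paired test was run. Alternatives covered the array median or quantiles as scale, the percentile over averaged probes (chosen after seeing the data), the authors' scaling factors, normexp (offset 50, on median spot and background intensity), the filter on dim probes, the slide, array weights, a trended variance, the mean over probes, the authors' grouping and each array left out.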

Additional observations from a re-analysis of the deposited data

Results flagged for a closer look

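In 8 of the groups of 5 arrays, 1 array lay far from the other 4, by a gap of more than 0.71 of the group's whole range. Chance alone gives this in about 1 of 20 groups, and 86 groups were examined (both groups of the 43 genes described with values). In 6 of the 8 the array was C replicate 2, at its high end. There Mrpl27 had a log2 signal of 2.39 (other C arrays 1.70 to 1.83), Mrpl43 of 3.84 (3.56 to 3.63) and Mrpl48 of 3.14 (2.87 to 2.93). Mrps5 was at 0.52 in that array (0.28 to 0.35), Mrps11 at 1.65 (1.31 to 1.39) and Mrps30 at 2.34 (2.13 to 2.17). Mrps5 was also low in R replicate 1, at 0.0124, with the other R arrays between 0.12 and 0.17. Mrpl50 was at −1.81 in R replicate 3, with the other R arrays between −3.16 and −2.77.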

How the results depend on the processing

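No paired analysis was possible because the labels give no replicate numbers that pair the animals. Against 33 genes called lower, 15 were called with no filter on dim probes, where 9.62% of all genes were. The authors' grouping gave 0 (lowest adjusted p = 0.461 by limma), as it did over all genes. Without the 2 arrays grouped otherwise 12 were called, where 10.2% of all genes were, and leaving out 1 array gave 16 to 34. No count is given within slide 2, which holds 1 R array. Between 25 and 49 were called under the other scales, filters and variance settings, where 17.5% to 37.3% of all genes were. The count called higher was 1 in place of 0 (Mrpl37) with a trended variance, with array weights and with the authors' scaling factors. The 2 genes past the study's criterion became 14 with the array median as reference, 12 within slide 1, 5 with slides blocked, 0 with array weights and 0 with the authors' grouping. They became 1 with quantile normalisation, with normexp, with the authors' scaling factors and without the 2 arrays, and 0 to 3 as each array was left out. The median change was −0.41 with the array median, −0.12 with array weights, −0.11 with the authors' grouping, −0.14 with the authors' scaling factors, and −0.23 to −0.13 as each array was left out. The cause of these moves was not tested, except that fewer arrays and more probes tested are part of their construction. Over 43 of the mitochondrial ribosomal protein genes and 25 alternatives, 894 of 1075 values kept their direction and their side of the threshold, 119 lost the call, 35 gained one, 27 changed sign without a call on either side and 0 reversed a call. Over 29 partner and neighbour genes, 573 of 725 values kept both, 148 lost the call, 3 changed sign uncalled and 1 reversed: Timm44 at −0.0312 (adjusted p = 0.80) with the array median. Dim signal limits Mrpl35 and Mrpl50.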
